A study of Danio rerio with 5 samples.

Results

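Cytosolic ribosomal protein genes encode the protein part of the ribosome. The 68 genes described here were all entries of the expression tables whose gene symbol, in any letter case, had the form of a small-subunit (RPS) or large-subunit (RPL or RPLP) ribosomal protein with a number, with RPL22 and RPL22L1 left out. They were 68 of 23628 gene identifiers, 30 of the small subunit and 38 of the large subunit, and each was detected on each plate. The rule itself uses names only, and it was chosen with earlier results of these data known.

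Single mCherry+ cells of runx1+23:mCherry zebrafish were sorted at 3 days post-fertilization (72 hours) into 5 plates of 384 wells and sequenced by SORT-seq, a plate method that tags each captured mRNA molecule near its 3′ end with a unique molecular identifier (UMI). The runx1+23 enhancer drives mCherry in hematopoietic stem and progenitor cells (HSPCs). All embryos carried the transgene and had been injected with a morpholino, an antisense oligomer that blocks translation or splicing of its target. The control group received the standard control morpholino (std, wells 1 to 188 of every plate) and the other group the irf8 morpholino (wells 189 to 384). Irf8 is a transcription factor that embryonic macrophages need in order to form, so the irf8 group was the macrophage-depleted one. Because each morpholino always took the same wells, plate position and morpholino cannot be told apart, and how many embryos stand behind a plate was not given, so the spread between plates may be partly technical.

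Of 1920 wells, 933 held at least 1000 transcripts and were kept, 467 of them std, with medians of 4763 transcripts per std cell and 6910 per irf8 cell. Sums per plate and morpholino ran from 91151 to 2078384 transcripts. The smallest sum came from the 10 irf8 cells of plate 5, of which 1 cell gave 37.3%, and 1 cell gave 48.6% of the std sum of plate 3. irf8 transcripts were nearly absent in both groups, at 0 to 6 transcripts per plate in the irf8 group and 0 to 3 in the std group, so this gene cannot check the labels.

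Ribosomal proteins are made in near-equal numbers and assembled with ribosomal RNA in the nucleolus, so their mRNAs, which are short, abundant and share a terminal oligopyrimidine start that ties their translation to growth signals, usually change together. Blood formation is unusually sensitive to their dose: in humans, loss of 1 copy of any of several of these genes causes Diamond-Blackfan anaemia, in which red cell precursors fail. In maturing red cells, globin mRNA comes to dominate the transcripts while nucleoli and ribosome production are shut down.

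Although all cells carry the label HSPC, few had the HSPC transcription factor gene MYB. Each cell was placed by its own transcripts. Cells with at least 10% of transcripts on globin genes were called globin-rich (571 cells, 257 std and 314 irf8). Of the rest, cells with at least 3% on muscle genes, 1% on cartilage genes or 0.5% on neural genes were called muscle-gene (55 cells, 11 std and 44 irf8), cartilage-gene (12 cells, 8 std and 4 irf8) and neural-gene cells (42 cells, 26 std and 16 irf8). Cells that met none of these and held at least 1 MYB transcript were called MYB-positive (83 cells, 55 std and 28 irf8), and 170 cells met no rule (remaining cells, 110 std and 60 irf8). A MYB transcript was also found in 2.28% of globin-rich cells, 3.64% of muscle-gene cells and 14.3% of neural-gene cells (6 of 42), at median depths of 5224, 2295 and 7900 transcripts against 11314 in MYB-positive cells, and 22 of the 83 MYB-positive cells held 1 MYB transcript only. The thresholds cut through a range: 60 cells held between 5 and 20% globin, 104 cells lay just under and 30 just over the muscle threshold, and 55 lay just under and 39 just over the neural threshold (within a factor of 2). The 39 were most of the 54 cells at or over the neural threshold. These counts took all 933 kept cells, also those placed in another kind, so not each of them depended on that threshold. Of cells at or over the neural threshold, only 42 were called neural-gene cells.

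MYB-positive cells spent the largest part of their transcripts on ribosomal protein genes, whereas globin-rich cells and most muscle-gene cells were low. Summed by plate, the 68 genes took 19.9%, 16.5% and 19.9% of transcripts in MYB-positive cells of plates 1, 2 and 4, a mean of 18.8% ± 1.96 (SD, n = 3 plates). In globin-rich cells of the same plates the shares were 6.01%, 5.69% and 6.54%, a mean of 6.08% ± 0.428 (SD, n = 3). The groups did not overlap, and the share was 3.30, 2.90 and 3.05 times higher in MYB-positive cells within plates 1, 2 and 4.

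The remaining cells lay between, with 12.98% ± 0.574 (SD, n = 5 plates, 12.4 to 13.8%). Their median depth was 6210 transcripts against 11314 in MYB-positive cells, and 29 of the 170 exceeded the median share of MYB-positive cells. Whether some of them held a MYB transcript that was missed was not tested. Neural-gene cells had 9.17%, 12.7% and 15.2% on plates 1, 3 and 5, and muscle-gene cells 6.16%, 6.45% and 14.4% on plates 3, 4 and 5. Single cells weighed on some of these sums. The plate 3 neural-gene sum of 512946 transcripts held the largest cell kept, of 287732. The muscle-gene sums of plates 3 and 4 each held 1 cell that gave 28.5% and 13.3% of all irf8 transcripts of those plates (576913 and 2078384). The muscle-gene sums themselves held only 295137 and 629827 transcripts, so these cells took a larger part of them. The makeup by morpholino also differed between the neural-gene and muscle-gene sums. Of the neural-gene cells, 6 of 10, 6 of 13 and 1 of 11 were irf8 on plates 1, 3 and 5. Of the muscle-gene cells, 28 of 32, 8 of 9 and 2 of 6 were irf8 on plates 3, 4 and 5. The part of the morpholino in these shares was not tested. These last 2 kinds overlapped each other and the remaining cells, and muscle-gene cells overlapped globin-rich cells, so they have no order beyond their spread. No sum of another kind reached the lowest MYB-positive sum. Cartilage-gene cells never reached 5 cells on a plate, and in single cells their share ran from 5.73 to 16.6% with a median of 11.6%.

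Single cells ranged widely within each kind. The median share was 20.7% in MYB-positive cells (lowest 0.432%, highest 33.7%), 12.2% in remaining cells (0.290 to 39.3%), 8.51% in neural-gene cells (2.84 to 20.2%), 6.55% in muscle-gene cells (1.25 to 16.5%) and 4.84% in globin-rich cells (1.52 to 18.9%). The highest globin-rich cell was exceeded by 50 of the 83 MYB-positive cells, 36 of the 170 remaining cells, 2 of the 42 neural-gene cells and none of the 55 muscle-gene or 12 cartilage-gene cells.

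**Figure D1:**
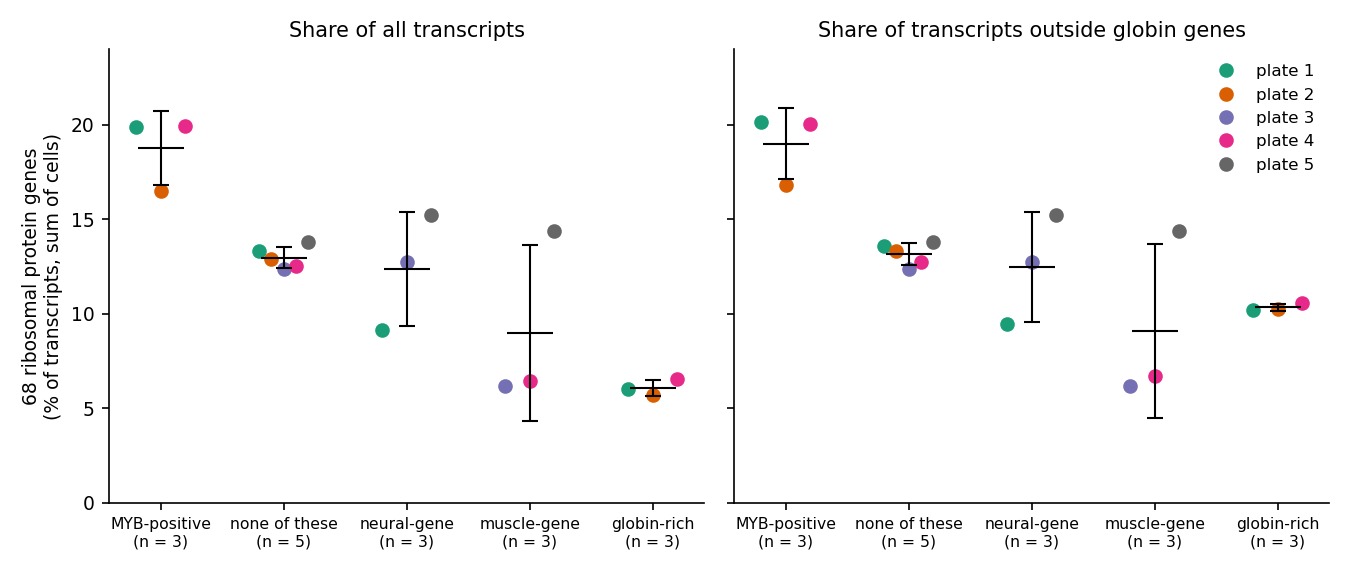
Share of transcripts on the 68 ribosomal protein genes by kind of cell (none of these: remaining cells), as percent of all transcripts (left) and of transcripts outside globin genes (right), with one point per plate sum, coloured by plate, and bars for the mean and SD over plates. MYB-positive sums sit between 16.5 and 19.9% of all transcripts, above the sums of every other kind, and globin-rich sums between 5.69 and 6.54%.

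Globin transcripts, by construction, take share from all other genes. Counted among transcripts outside the globin genes, the ribosomal protein share was 20.1%, 16.8% and 20.03% in MYB-positive cells and 10.2%, 10.2% and 10.6% in globin-rich cells of plates 1, 2 and 4. The groups still did not overlap, and the within-plate ratios shrank to 1.97, 1.64 and 1.90. Muscle-gene cells, at 9.08% ± 4.60 outside globin (SD, n = 3 plates), then had a mean below the 10.3% ± 0.198 of globin-rich cells, with a spread that spanned it. Across globin-rich cells split by globin content, the share of all transcripts was 8.58% at 10 to 30% globin, 5.82% at 30 to 50%, 4.68% at 50 to 60% and 3.62% above 60%. Outside globin it was 10.4%, 9.92%, 10.4% and 10.1% in the same bins, with SDs over plates of 0.265 to 1.55. With both morpholinos pooled, it thus had no order by globin content. The bins differed in makeup, with 25 std and 47 irf8 cells at 10 to 30% globin and 66 std and 36 irf8 cells above 60%. In irf8 cells alone the means were 9.51% (2 plates) and 9.49% in the bins below 50% globin, and 7.79% and 7.74% in those above. In std cells they were 13.1% (2 plates), 12.04%, 14.1% and 11.8%. The makeup by morpholino also differed between kinds of cell, so MYB-positive and globin-rich cells were compared again within each morpholino. Outside globin, the share was 22.7% ± 1.54 against 13.1% ± 0.714 in std cells and 15.9% ± 2.33 against 9.11% ± 0.368 in irf8 cells (MYB-positive against globin-rich, SD, n = 3 plates), and MYB-positive cells were higher on all 3 plates in both.

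Individual genes were compared between kinds of cell on the plate sums by the quasi-likelihood test of edgeR. The plate was a block, and p-values were adjusted by Benjamini-Hochberg across the 6716 genes tested. Of the 68 genes, 66 passed the low-count filter, and the 2 others were too rare to be tested. Between globin-rich and MYB-positive cells, 15 of the 66 fell and 0 rose, against 8.26% of all genes that fell. All 66 had log2 fold changes below 0, as had 3278 of all 6716 genes, with a median of -0.93 against 0.04 for all genes. An unadjusted p under 0.05 was found for 54 of the 66, against 2069 of the 6716. The 15 included RPL7L1, RPL3, RPL5 (ENSDARG00000015862), RPS3A, RPL15, RPL23A, RPS7, RPS9, RPL17, RPL34, RPL18, rpl7a, RPL27 and RPLP1. They comprised 4 of 28 tested small-subunit genes, 11 of 38 large-subunit genes and 5 of 18 Diamond-Blackfan genes (RPL5, RPL15, RPL18, RPL27 and RPS7). The count was unstable: it was 0 without plate 1, 2 without plate 2, 44 without plate 3, 0 without plate 4 and 4 without plate 5, and DESeq2 called 6. The median stayed below 0 in all of these, with 1 of the 66 genes above 0 in DESeq2 and without plate 1, 4 or 5. With cells thinned to 1000 transcripts the median was -0.27, with 12 of 64 genes lower, 1 higher and 10 above 0, and with the thresholds for kinds of cell doubled it was -0.51, with 2 above 0.

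RPL7L1, a relative of RPL7 that in humans is found in precursors of the large subunit, had the largest fold change of the 15. Its level outside globin was 1.84, 1.69 and 2.45 per 10,000 transcripts in MYB-positive cells of plates 1, 2 and 4, and 0.779, 0.423 and 0.705 in globin-rich cells. It fell by 1.68 on the log2 scale (SE 0.38, adjusted p = 0.0111, edgeR), from only 253 and 153 transcripts in all. RPL3, a core protein near the peptidyl transferase centre, was at 8.24, 9.63 and 11.4 per 10,000 transcripts outside globin in MYB-positive cells and 3.45, 4.07 and 3.28 in globin-rich cells, and fell by 1.43 (SE 0.37, adjusted p = 0.0217, edgeR). Neither gene's levels overlapped between the kinds of cell, but both were named for being called, and non-overlap was not counted over all genes.

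The most abundant ribosomal protein mRNAs were also higher in MYB-positive cells. SORT-seq counts each molecule once at its 3′ end, so levels were not divided by gene length, and differences in capture between genes were not measured. Over all cells, RPLP1 was the highest at a mean of 37.9 per 10,000 transcripts, followed by RPS2 at 35.0, RPLP0 at 32.5, RPL8 at 27.3 and rps27a at 27.1. RPLP0, RPLP1 and rplp2l form the stalk that recruits elongation factors, RPS2 lies at the mRNA entrance, RPL8 lies by the peptidyl transferase centre, and rps27a is made as a fusion with ubiquitin. Among the lowest were RPL4 at 2.85 and RPL7L1 at 0.78.

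Outside globin, RPLP1 was at 70.8, 61.8 and 73.4 per 10,000 transcripts in MYB-positive cells and 31.1, 31.3 and 33.4 in globin-rich cells of plates 1, 2 and 4, and was the only stalk gene of 3 to pass the test (log2 fold change -1.11, SE 0.35, adjusted p = 0.0499, edgeR). RPLP0 was at 52.7, 50.5 and 63.8 against 35.4, 43.4 and 34.9, and rplp2l at 32.1, 28.9 and 32.8 against 17.9, 17.96 and 19.0. RPS2 was at 62.9, 54.3 and 58.6 against 39.5, 40.9 and 36.5. None of these 4 overlapped between kinds, a property not counted over all genes, and RPLP0, rplp2l and RPS2 did not pass the adjusted threshold. RPS19, needed for small-subunit maturation and the first gene linked to Diamond-Blackfan anaemia, was at 20.5, 16.6 and 19.2 against 10.2, 10.2 and 9.26 per 10,000 transcripts outside globin. RPL11, which with RPL5 binds the 5S ribosomal RNA, was at 23.4, 20.8 and 24.7 against 13.2, 13.5 and 14.7. Both were higher on every plate in MYB-positive cells without passing the test.

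**Figure D2:**
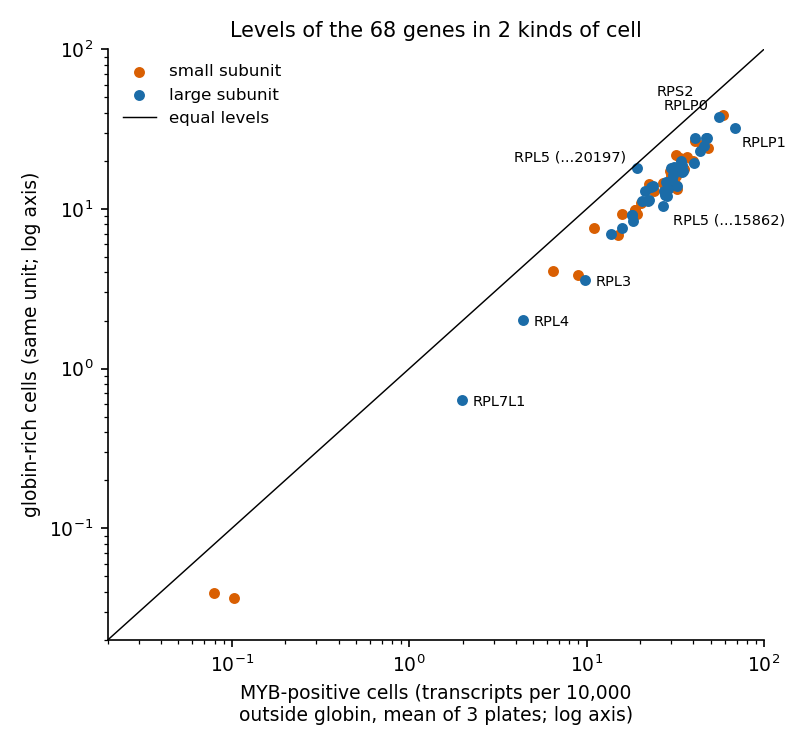
Mean level of each of the 68 genes per 10,000 transcripts outside globin in MYB-positive (horizontal axis) and globin-rich cells (vertical axis), n = 3 plates, both on log axes, coloured by subunit. All 68 points lie on the MYB-positive side of the line of equal levels, RPLP1 is the highest in MYB-positive cells at 68.7, and RPL5 (ENSDARG00000020197) lies near the line.

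**Figure D3:**
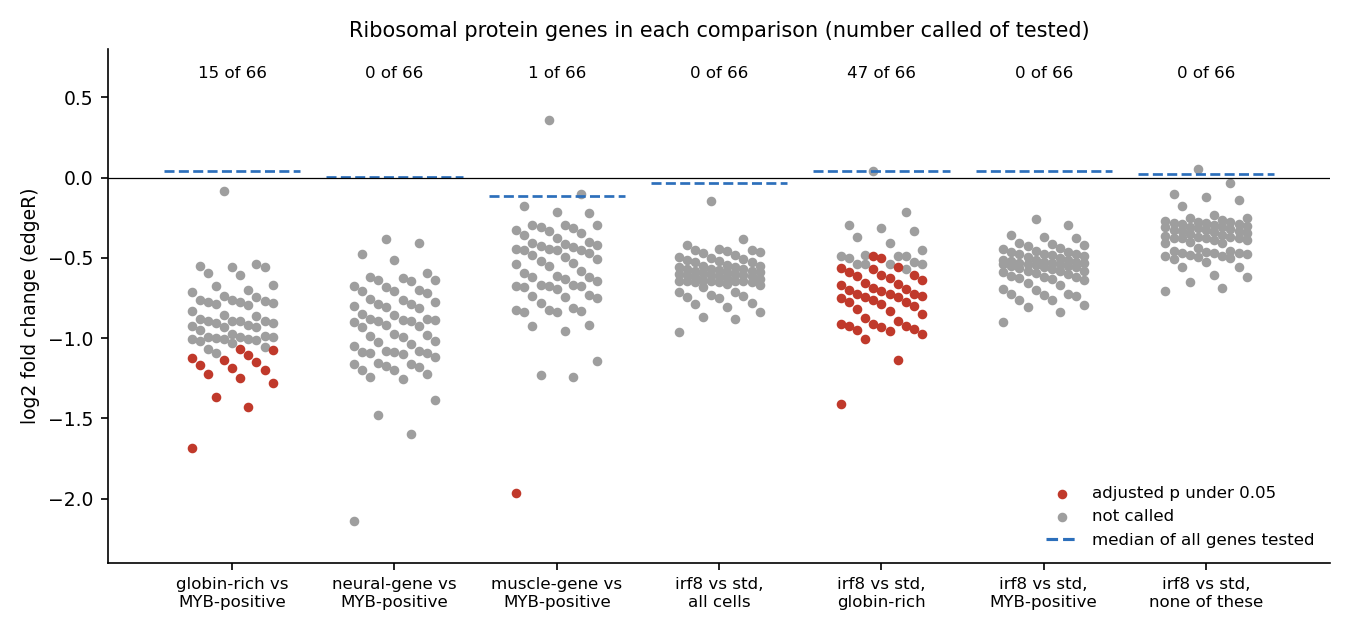
Log2 fold changes (edgeR) of the 66 tested ribosomal protein genes in each of 7 comparisons, with one point per gene, called genes in red, and a dashed line at the median of all genes tested. For globin-rich against MYB-positive cells all 66 points lie below 0 with 15 called, and for irf8 against std in globin-rich cells 65 lie below 0 with 47 called.

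Against MYB-positive cells, muscle-gene cells showed 1 of 66 genes that fell and 0 that rose, with 4.57% of all genes lower. The gene was RPL7L1 (log2 fold change -1.97, SE 0.54, adjusted p = 0.0379, edgeR), and the call was lost without plate 1, 3 or 4, without the largest cell of each sum, with thresholds halved and in DESeq2. With cells thinned to 1000 transcripts the gene was not tested, and 10 others fell. Of the 66 genes, 65 were below 0, against 3578 of all 6716, with a median of -0.55 against -0.11 for all genes. The median of -0.55 became 0.09 when the thresholds for kinds of cell were doubled. An unadjusted p under 0.05 was found for 7 of the 66, a smaller share than the 1714 of all 6716. In neural-gene cells 0 of 66 passed in either direction, against 1.04% of all genes lower, and DESeq2 called 1. The median was -0.91 against 0.01 for all genes. Of the 66, 29 had an unadjusted p under 0.05, against 1605 of all 6716. The smallest p-values were those of RPL7L1 (-2.14, adjusted p = 0.0561), RPL5 (ENSDARG00000015862) (-1.48, adjusted p = 0.0813) and the large-subunit gene RPL15 (-1.38, adjusted p = 0.0911), all by edgeR. Without plate 2 the count was 1, without plate 3 it was 6, and without plate 1 the median was -0.33. Muscle-gene and MYB-positive sums shared plate 4 only and neural-gene and MYB-positive sums plate 1 only, so with the plate as a block these contrasts were direct on 1 plate each and otherwise ran through other kinds of cell. The sums pooled both morpholinos, and 44 of 55 muscle-gene, 16 of 42 neural-gene and 28 of 83 MYB-positive cells were irf8. The part of the morpholino in these contrasts was not tested. Cartilage-gene cells were too few to be tested.

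Genes of the wider translation apparatus were read from lists of known members. In globin-rich against MYB-positive cells, where 8.26% of all genes fell and 7.97% rose, 35 of 49 ribosome biogenesis genes (nucleolar proteins and assembly factors) fell and 0 rose, with a median log2 fold change of -2.18. Their summed share was 0.663% ± 0.149 of all transcripts in MYB-positive and 0.0848% ± 0.0114 in globin-rich cells (SD, n = 3 plates). Outside globin these shares were nearer, at 0.671% ± 0.146 and 0.144% ± 0.0149. Of 60 genes for mitochondrial ribosomal proteins, 21 fell and 0 rose (median -1.47), and of 40 translation factor genes 5 fell and 3 rose (median -0.58), shares near those of all genes. In muscle-gene cells 21 of 49 biogenesis genes fell (median -2.53, against 4.57% of all genes lower) and in neural-gene cells 6 of 49 (median -2.58, against 1.04%), with 0 rising in either. Of 6 ribosomal protein genes whose symbols lay outside the naming pattern, 1 fell in globin-rich cells, and their median of -0.77 was close to that of the 66.

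Within the family, the large-subunit genes held 58.0% ± 0.592 of ribosomal protein transcripts in MYB-positive, 57.2% ± 0.546 in globin-rich and 56.2% ± 0.214 in muscle-gene cells (SD, n = 3 plates each). Over 136 pairs of plate-and-kind sums, the Pearson correlation of log2 levels across the 68 genes ran from 0.947 to 0.997 with a median of 0.982, given as a description since the pairs share plates and each gene's own capture. When globin-rich and MYB-positive cells were compared relative to the total of the 68 genes, 0 of 66 passed the test in either direction, against 15.3% of all genes, and 1 had an unadjusted p under 0.05. This scaling centres the 66 genes (median -0.05) and shifts the median of all genes to 0.92, so nothing is read from the 15.3%. That gene was RPL5 (ENSDARG00000020197), at a log2 difference of 0.80 (SE 0.25, adjusted p = 0.0574, edgeR). The count was 1 without plate 3 and 1 without plate 5, but 9 with thresholds for kinds of cell doubled and 9 with cells thinned to 1000 transcripts. Over 14 alternatives the adjusted p of this RPL5 copy ran from 0.00177 to 0.324 (edgeR). RPL3 (-0.56, adjusted p = 0.211) and the other RPL5 (-0.49, adjusted p = 0.178) were next.

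The 2 copies of RPL5 were not alike between these kinds of cell, although neither was called apart from the total at the settings used throughout. RPL5, which carries 5S ribosomal RNA into the large subunit, is listed under 2 identifiers. ENSDARG00000015862 stood at 26.7, 24.1 and 29.9 per 10,000 transcripts outside globin in MYB-positive cells and 10.4, 10.3 and 10.5 in globin-rich cells of plates 1, 2 and 4 (log2 fold change -1.36, SE 0.33, adjusted p = 0.0158, edgeR). ENSDARG00000020197 stood at 19.8, 17.7 and 19.8 against 16.8, 20.05 and 17.6, and these overlapped (-0.08, adjusted p = 0.894, edgeR). The first copy was the more abundant in MYB-positive cells and the second in globin-rich cells.

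As a percentage of the pair, the first copy gave 57.4, 57.6 and 60.1% in MYB-positive cells, 38.2, 34.03 and 37.5% in globin-rich cells of plates 1, 2 and 4, and 37.5, 36.0 and 46.2% in muscle-gene cells of plates 3, 4 and 5. Neural-gene cells (50.1% ± 4.22, n = 3) and remaining cells (54.7% ± 2.91, n = 5) had means between (SD over plates). MYB-positive and globin-rich cells did not overlap. The copies held 3435 and 2452 transcripts in the MYB-positive sums and 2436 and 4192 in the globin-rich sums, and the difference in their ratio was not tested. In globin-rich and in MYB-positive cells the first copy's percentage was also lower in irf8 cells on 3 of 3 plates, at 43.0, 38.0 and 40.5% (std) against 34.1, 32.6 and 35.9% (irf8) in globin-rich cells and 58.9, 60.3 and 61.9% against 55.7, 55.4 and 53.7% in MYB-positive cells. In remaining cells it was lower on plates 1 and 2 and higher on plates 3 (48.2% in std, 52.8% in irf8) and 4 (54.6 and 57.5%). This comparison of copies was chosen after the values were seen. How reads matching both copies were counted was not given in the sources used here.

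The copies of RPS26 overlapped in their percentages between MYB-positive and globin-rich cells. For RPS26, a protein of the mRNA exit channel, the copy ENSDARG00000030408 gave 78.7% ± 1.78 of the pair in MYB-positive and 77.8% ± 0.617 in globin-rich cells (SD, n = 3 plates). In neural-gene cells of plates 1, 3 and 5 it gave 75.1, 72.6 and 74.2%, below every MYB-positive and globin-rich sum, but those kinds had no sum on plates 3 and 5. Remaining cells, at 73.7 to 79.4% over 5 plates, overlapped the neural-gene cells.

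**Figure D4:**
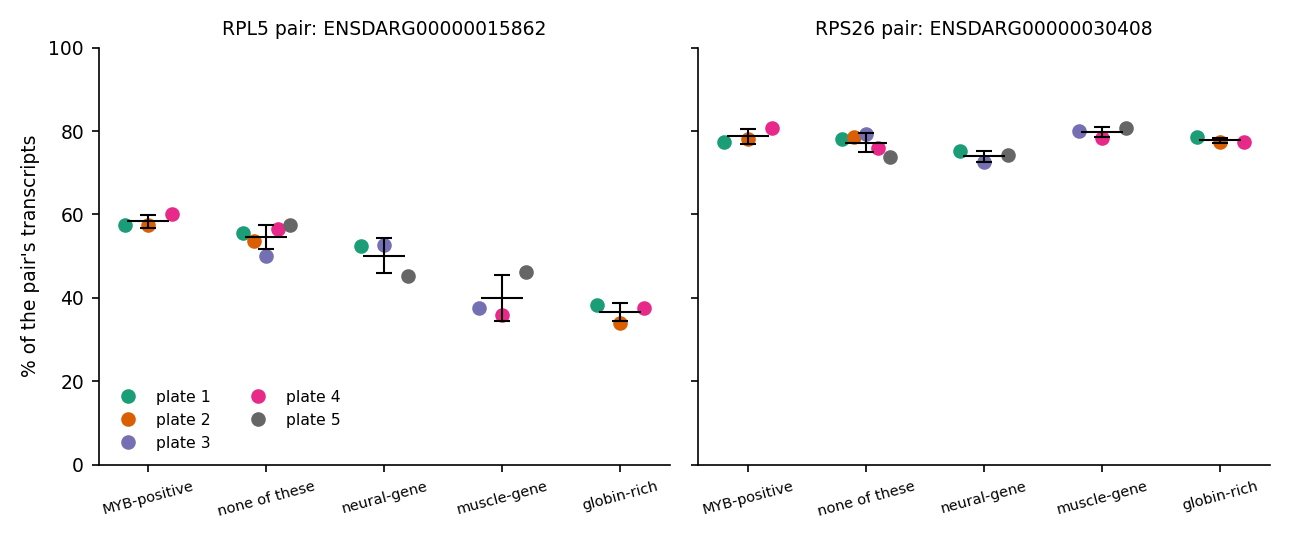
Percentage of a gene pair's transcripts that came from the named copy, by kind of cell (none of these: remaining cells), for RPL5 (left) and RPS26 (right), with one point per plate and bars for the mean and SD. For RPL5 the MYB-positive points lie at 57.4 to 60.1% and the globin-rich points at 34.03 to 38.2%, whereas the RPS26 means lie between 74.0 and 79.7%.

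The study's own comparison was between morpholinos, and the ribosomal protein share was lower in irf8 than in std cells. Over all cells it was 12.01%, 13.7%, 13.5%, 12.6% and 14.3% in std cells of plates 1 to 5 and 8.68%, 8.15%, 8.28%, 7.11% and 13.4% in irf8 cells. It was lower in irf8 cells on 5 of 5 plates (13.2% ± 0.915 against 9.12% ± 2.45, SD, n = 5), but the irf8 value of plate 5, from 10 cells, lay within the std range. Outside globin the means were 15.3% ± 1.46 and 10.5% ± 2.01. The plates were not alike in makeup. Plates 3 and 5 held 0 and 2 of the 571 globin-rich cells and 2 and 3 of the 83 MYB-positive cells. Muscle-gene cells gave 289146 of the 576913 irf8 transcripts of plate 3 and 628543 of the 2078384 of plate 4. Since kinds of cell also differed between morpholinos, with 44 of 55 muscle-gene cells in the irf8 group, the comparison was repeated within kinds.

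In globin-rich cells the share outside globin was 12.3%, 13.7% and 13.4% in std and 8.70%, 9.25% and 9.39% in irf8 cells of plates 1, 2 and 4 (13.1% ± 0.714 against 9.11% ± 0.368, SD, n = 3), without overlap. Their share of all transcripts differed less, at 7.12% ± 0.649 in std and 5.54% ± 0.384 in irf8 cells (SD, n = 3), and was lower on 3 of 3 plates. In MYB-positive cells the share of all transcripts was 22.5%, 24.04% and 21.0% in std and 17.4%, 12.9% and 16.5% in irf8 cells (22.5% ± 1.49 against 15.6% ± 2.35, SD, n = 3), again without overlap. The irf8 sums of MYB-positive cells came from 5 to 11 cells, with a single cell giving 29.0 to 39.5% of the transcripts. These irf8 cells were also deeper, at medians of 17347, 12406 and 22709 transcripts against 9376, 10412 and 15027 in std cells. Spike-in RNA took 2.47 to 4.21% of counts in the irf8 sums and 4.31 to 6.03% in the std sums. MYB-positive cells were not split by depth, and the part of depth in their difference was not tested. In remaining cells the mean shares of all transcripts were 14.5% ± 1.71 in std and 11.3% ± 1.03 in irf8 cells (SD, n = 4), lower on 3 of 4 plates. On plate 3 the share was 12.3% in std and 12.5% in irf8 cells. Plate 3 alone had enough neural-gene cells of both (7 std and 6 irf8), at 14.6% and 9.05% of all transcripts. The std sum of 341475 transcripts held the largest cell kept, of 287732 transcripts. Without the largest cell of each sum, the difference of -5.55 percentage points became -1.55.

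**Figure D5:**
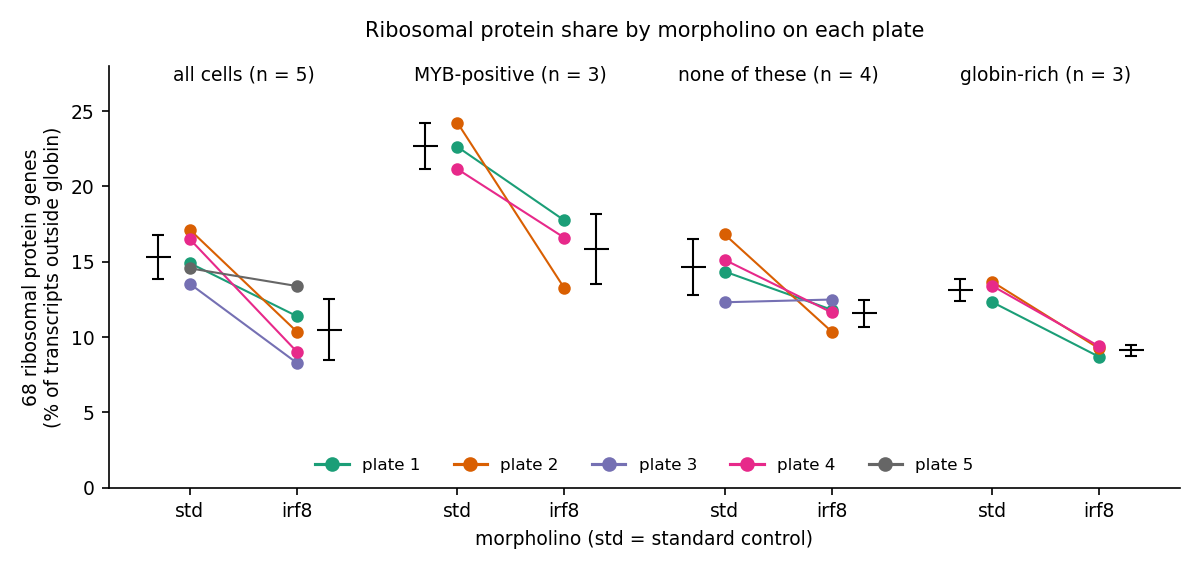
Share of transcripts outside globin on the 68 ribosomal protein genes in std and irf8 sums, in percent, with one line per plate and bars for the mean and SD, for all cells and within 3 kinds of cell (none of these: remaining cells). All 5 lines fall for all cells, least for plate 5, and all 3 fall in MYB-positive and in globin-rich cells, whereas the plate 3 line of the remaining cells does not.

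Other measures moved with the morpholino. In globin-rich cells, irf8 cells were deeper (median 6752 against 4171 transcripts), held less globin (36.4 to 41.6% against 41.8 to 52.4% per plate) and had a higher mitochondrial share (3.45 to 4.60% against 2.15 to 3.16%). Within 4 depth ranges, from 1000 to 3000 up to over 12000 transcripts, the share outside globin was lower in irf8 cells on each plate with at least 5 cells of both. These were 3, 3, 3 and 2 plates. The same held within the 4 globin ranges, with 2, 3, 3 and 3 plates. Both splits cut the same cells of the same 3 plates, so the ranges are not further replicates. From 3000 to 6000 transcripts, for example, the means were 12.9% in std and 8.45% in irf8 cells. As a share of all transcripts, the 1000 to 3000 range of plate 2 was not lower in irf8 cells (4.84% in std, 4.85% in irf8). Of other cell types' transcripts in globin-rich cells, those of 49 muscle genes summed to 0.303 to 1.13% in std and 0.458 to 1.57% in irf8 cells, with 5 and 4 of them at 0, and those of 47 lens crystallin genes to 0.0284 to 1.20% and 0.0663 to 0.166%, with 9 and 11 at 0. The 25 macrophage genes summed to at most 0.0163% in either group, with 13 of them at 0 in std and 10 in irf8 cells. In MYB-positive cells the 6 neutrophil genes summed to 0.00463 to 0.883% in std and 0.138 to 3.36% in irf8 cells, the globin genes to 0.527 to 0.845% and 0.573 to 2.45%, the muscle genes to 0.0972 to 0.602% and 0.261 to 0.857%, the cartilage genes to 0.0128 to 0.0294% and 0.0177 to 0.356%, and the neural genes to 0.00727 to 0.0349% and 0.0198 to 0.158%. The depth and globin ranges did not equalise depth or globin content within a range. The parts of depth, globin content, the mitochondrial share and these markers in the differences were not tested.

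In globin-rich cells 47 of 66 genes fell in irf8 cells and 0 rose, against 4.47% of all 4138 genes that fell. The median log2 fold change was -0.68 against 0.04 for all genes, and 65 of the 66 were below 0, as were 1963 of the 4138. The 47 comprised 19 of 28 small-subunit genes, 28 of 38 large-subunit genes, 3 of 3 stalk genes and 13 of 18 Diamond-Blackfan genes. By simple direction, 51 of the 66 had a lower share of transcripts on all 3 plates, against 11.5% of all genes tested. The count was 0 without plate 1, 23 without plate 2 and 0 without plate 4, and 20 in DESeq2, and with cells thinned to 1000 transcripts the median was -0.36.

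RPS28, a small-subunit protein by the mRNA exit channel, had the largest fold change. It stood at 14.1, 15.3 and 16.7 per 10,000 transcripts outside globin in std and 5.52, 6.42 and 7.62 in irf8 globin-rich cells (log2 fold change -1.41, SE 0.14, adjusted p = 0.00612, edgeR). For rps20, of the small-subunit head, the levels were 29.4, 35.3 and 34.8 against 15.2, 17.6 and 17.9 (-1.14, SE 0.11, adjusted p = 0.00612). RPS12, of the small-subunit beak, was at 29.4, 32.6 and 28.4 against 16.7, 17.3 and 16.5 (-1.003, SE 0.12, adjusted p = 0.00968). The std and irf8 levels of these 3 genes did not overlap, but they were picked by fold change, and non-overlap was not counted over all genes.

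Among the stalk genes, RPLP0 was at 46.6, 65.5 and 47.9 per 10,000 transcripts outside globin in std and 27.5, 37.1 and 29.6 in irf8 cells (-0.92, adjusted p = 0.0101), with rplp2l (-0.78, adjusted p = 0.0228) and RPLP1 (-0.59, adjusted p = 0.0312) changed less. Of the Diamond-Blackfan genes, RPS19 (-0.96, adjusted p = 0.0150), RPL11 (-0.57, adjusted p = 0.0430) and the first RPL5 copy (-0.70, adjusted p = 0.0312) fell, all by edgeR. Not every gene passed: the second RPL5 copy (-0.32, adjusted p = 0.161), RPS4Y2 (-0.33, adjusted p = 0.181) and RPL7L1 (0.04, from levels of 0.08 to 0.98) did not.

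In MYB-positive cells 0 of 66 genes passed in edgeR, as did 0.0% of all 2648 genes tested in the lower direction, and DESeq2 called 0. All 66 were below 0, as were 1252 of all 2648 genes, with a median of -0.54 against 0.04 for all genes. An unadjusted p under 0.05 was found for 59 of the 66, against 394 of the 2648. By direction alone, 63 of the 66 were lower on all 3 plates, against 17.5% of all genes tested. The smallest p-values were those of rps20, at 41.3, 42.9 and 39.2 per 10,000 transcripts outside globin in std and 26.3, 19.5 and 24.99 in irf8 cells (-0.84, adjusted p = 0.190), the large-subunit gene RPL34 (52.1, 45.6 and 50.9 against 33.3, 26.8 and 31.7; -0.72, adjusted p = 0.203) and RPS23, of the decoding centre (32.4, 29.8 and 27.1 against 21.3, 15.8 and 16.8; -0.76, adjusted p = 0.206). Their levels did not overlap, but they were picked by p-value, and non-overlap was not counted over all genes. The count was 2 without plate 4.

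Whether the irf8 change differed between MYB-positive and globin-rich cells was tested as an interaction, which 0 of 66 genes passed against 0.266% of all 4136 genes in either direction. The median interaction over the 66 was 0.13 on the log2 scale, against 0.06 for all genes. Of the 66, 1 had an unadjusted p under 0.05, against 524 of the 4136, and no other tool was run.

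In remaining cells 0 of 66 passed in edgeR and 0 in DESeq2, as did 0.0% of all 1976 genes tested in the lower direction. An unadjusted p under 0.05 was found for 18 of the 66, against 131 of the 1976. By direction, 24 were lower on all 4 plates against 7.49% of all genes. The median was -0.37. The smallest p-values were those of rps20 (-0.70), RPS25, a small-subunit protein (-0.65), and RPL7, of the large subunit (-0.51), each with an adjusted p of 0.706.

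Over all cells together, 0 of 66 genes passed in edgeR, against 0.014% of all 7141 genes lower. An unadjusted p under 0.05 was found for 63 of the 66, against 671 of the 7141. All 66 were below 0, as were 3780 of the 7141 (median -0.60 against -0.03 for all genes). By direction, 46 were lower on all 5 plates against 5.95% of all genes. DESeq2 called 58. RPS28 was at 14.3, 14.4, 18.6, 14.9 and 19.5 per 10,000 transcripts in std cells of plates 1 to 5 and 8.03, 6.83, 8.35, 6.80 and 13.99 in irf8 cells (-0.96, SE 0.15, adjusted p = 0.290). RPS19 was at 13.3, 13.7, 14.7, 12.5 and 17.2 against 7.99, 7.19, 7.39, 5.72 and 12.2 (-0.88, adjusted p = 0.290), and RPL18, a large-subunit protein, at 17.1, 19.9, 18.9, 18.3 and 20.7 against 10.8, 9.69, 10.2, 7.62 and 16.2 (-0.87, adjusted p = 0.290). The std and irf8 levels of these 3 genes, picked by p-value, did not overlap, and non-overlap was not counted over all genes. In each, the irf8 level nearest to the std levels was that of plate 5.

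The same lists were read between morpholinos. In irf8 globin-rich cells, where 4.47% of all genes fell and 3.14% rose, 4 of 6 ribosomal protein genes outside the naming pattern fell (median -0.61), as did 7 of 37 translation factor genes, with 1 rising (median -0.36). None of 16 ribosome biogenesis genes (median 0.21) or 18 mitochondrial ribosomal protein genes (median 0.59) passed in either direction. In irf8 MYB-positive cells no gene of these lists passed either, but 34 of 41 biogenesis genes were below 0 (median -0.55, against 0.04 for all genes). So were 37 of 47 mitochondrial ribosomal protein genes (median -0.39) and 33 of 36 translation factor genes (median -0.38). In remaining cells 2 of 12 biogenesis genes were below 0 (median 0.45). The biogenesis list held 52 genes. The 16, 41 and 12 tested were those that passed the low-count filter in each kind of cell, so these medians do not compare the same genes.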

How the data were processed

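The authors deposited estimated counts of transcripts per gene and well for each of the 5 plates, made by mapping reads, counting UMIs and correcting the UMI count for collisions. The submitters' processing notes name BWA, Seurat and the GRCz11 genome build. Undoing a correction for chance reuse among 4096 possible UMIs gave whole numbers for 100% of values (tolerance 1e-06). Spike-in RNA (6.31% of counts) was left out. Wells with at least 1000 transcripts were kept, and 26 wells lay between 900 and 1100. One cell was sorted per well, so doublets were not called. Well labels repeat on each plate, so shared cells could not be sought. Gene symbols came from the Ensembl name table, matching 18186 of 23628 identifiers, and symbols in capitals follow human names.

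Estimated counts were summed per plate and kind of cell (sums of at least 5 cells), rounded and tested in R 4.3.3 with edgeR 4.0.16 (filterByExpr, TMM scaling, quasi-likelihood test, plate as block, Benjamini-Hochberg over all genes tested, threshold 0.05). SE is the log2 fold change over the root of F. Plates pair the morpholinos, since per the labels both were sorted onto each plate. In the fit of kinds of cell, plates 3 and 5 hold no globin-rich or MYB-positive sum and enter that contrast only through the filter and the shared spread. DESeq2 1.42.0 was an alternative. Scripts were tested on simulated data. Shares over the gene set have no test.

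The genes, the other gene lists, the kinds of cell and the comparisons were chosen with earlier results of these data known. Named genes were the 5 highest and 5 lowest by mean level, up to 3 called genes per comparison and direction by size (smallest p where none was called), up to 4 called apart from the total of the set, the stalk genes, RPS19, RPL5 and RPL11, and copies marked L, X or Y, of which some are not reported here. The depth and globin ranges, the copy comparison, the counts of plates, the remaining cells and the interaction were chosen after the data were seen. Sequences were not used here.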

Additional observations from a re-analysis of the deposited data

Results flagged for a closer look

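Over all cells, the irf8 value of plate 5 stood apart from those of the other 4 plates for the ribosomal protein share (13.4%, with the next at 8.68%) and, as levels per 10,000 transcripts, for RPL7 (28.9), RPL15 (22.1), rplp2l (22.9), RPS4Y2 (31.2), RPL5 (ENSDARG00000020197) (15.9), RPS23 (18.9), RPLP1 (47.6), rps27a (30.4), RPS28 (13.99), rps20 (24.4), RPS12 (27.5), RPL11 (18.2) and RPS2 (42.9), by Dixon's test for a single distant value among 5. All were the highest of their group. Of 62 groups tested, 14 had such a value, where chance gives about 1 in 20 or 3.1, and the 14 are not independent because they come from 1 sum. That sum held 10 cells, of which 1 gave 37.3% of the transcripts, and globin took 0.0329% of it against 0.127 to 23.8% in the irf8 sums of the other plates. The part of these differences in the high value was not tested.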

How the results depend on the processing

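Of the share results, the direction of every irf8 difference held under all alternatives run. Values moved by more than the spread between plates as follows. With each cell weighted equally the share was 20.9% in MYB-positive, 5.4% in globin-rich and 9.27% in neural-gene cells. With thresholds for kinds of cell halved it was 6.6% in globin-rich and 14.4% in remaining cells, and with them doubled 5.41% and 11.4%. With sums of at least 2 cells it was 16.7% in MYB-positive and 6.55% in globin-rich cells, and without the largest cell of each sum 9.19% in neural-gene cells. The neural-gene irf8 difference of -5.55 percentage points became -3.2 (equal weights), -2.69 (halved), -1.55 (without the largest cell) and -1.82 (at least 2 cells).

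Counts of called genes depended strongly on the setting, and the cause was not tested. Globin-rich against MYB-positive cells gave 15 calls, against 6 in DESeq2, without a low-count filter and without the largest cells, 11 with no replicate block, 23 without globin genes or with thresholds doubled, 27 with them halved, 38 with remaining cells in the fit, 12 lower and 1 higher thinned to 1000 transcripts, and 0 to 44 over plates left out. Their median of -0.93 became -0.27 thinned and -0.51 with thresholds doubled. Relative to the total the 0 calls became 1 with remaining cells added or thresholds halved, 9 with thresholds doubled, 9 with cells thinned to 1000 transcripts, and 0 to 1 over plates left out. Muscle-gene cells (1 call) gave 0 in DESeq2 and without the largest cells, 3 at a minimum of 500 transcripts, 2 with thresholds doubled or no filter, 10 thinned, and 0 to 1 over plates. Neural-gene cells (0 calls) gave 1 in DESeq2 or without filter, 2 with remaining cells, 60 with thresholds halved, 12 with no replicate block, 8 thinned, and 0 to 6 over plates. For irf8, all cells (0 calls) gave 58 in DESeq2, 20 without filter and 28 thinned. Globin-rich cells (47 calls) gave 20 in DESeq2, 33 without filter, 58 with thresholds doubled, 19 halved, 26 with no replicate block and 28 thinned. Without plate 1, 2 or 4, the only plates in that fit, they gave 0, 23 and 0. MYB-positive cells (0 calls) gave 12 without filter and 0 to 2 over plates. With no replicate block the other irf8 counts stayed at 0. DESeq2's scaling moved the median of all genes from 0.04 to 0.22 between globin-rich and MYB-positive cells.

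The cartilage-gene comparison and the irf8 comparison in muscle-gene cells could not be fitted with sums of at least 5 cells. With thresholds halved, 22 of 66 genes fell in cartilage-gene cells (median -1.33), and at 500 transcripts 0 of 65 passed in muscle-gene cells. Doubled thresholds left no neural-gene fit. With 12 sums and 4 residual degrees of freedom in the fit of kinds, precision was limited by cells and plates.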
